A study of Rattus norvegicus with 16 samples.

Results

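The left ventricle of sham-operated rats was described from the values of 4 sham groups, collected 2, 4, 5 and 7 weeks after surgery. They hold 8 of the 16 libraries of a series on 5/6 nephrectomy (5/6Nx, removal of most of the kidney tissue), which served as the surgical controls of that series. All groups were male Sprague Dawley rats that had sham surgery at 10 weeks of age, and were kept on a 0.4% Dyets chow from their delivery at 9 weeks; a sham operation by its name spares the kidney. They differed in the time since surgery and so in age, from 12 to 17 weeks. Each group had 2 libraries of total RNA from frozen ventricle, each made from 2 to 3 pooled rats, so no value belongs to one animal. The members are the 17162 loci with a gene symbol, of 22861 loci in the deposited tables. Each was ranked within its own week by its abundance, taken as FPKM (sequenced fragments divided by transcript length and by the number of fragments).

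The ventricle wall contracts with every beat. Its working cell, the cardiomyocyte, is packed with sarcomeres, in which myosin filaments pull on actin filaments when calcium binds troponin. The ATP for this comes almost wholly from mitochondria, which burn mainly fatty acids and pass electrons along the respiratory chain to ATP synthase. Fibroblasts, endothelial cells, pericytes and macrophages outnumber cardiomyocytes in many counts of nuclei but hold less RNA each. The RNA of a piece of ventricle is therefore dominated by the genes of contraction and of oxidative metabolism.

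Limits of the tables come first. The deposited tables give 1 pooled value per group and week, so no spread between libraries can be had and no test was made. Differences between weeks are sizes, not significance, and time since surgery, age and collection cannot be told apart. Whether the weeks share a common scale is not known. The summed FPKM of the named loci was 737408, 747868, 859619 and 569172 at weeks 2, 4, 5 and 7. FPKM of different weeks is therefore only roughly comparable, and ranks and shares are the safer measure. Sham libraries held 49.8 to 56.9 M reads, of which 94.0 to 94.8% were mapped. The share of bases at quality 30 or above was 93.2 to 94.5% at weeks 2 to 5 and 96.0 to 96.1% at week 7. The pool numbers in the labels start anew at week 7. At week 7 the authors' test statistic had the opposite sign to their log2 fold change in 13886 of 13886 rows, against 2 of 14104, 0 of 14075 and 2 of 13621 rows at weeks 2, 4 and 5. If the column names of week 7 were exchanged, its values would be those of 5/6Nx rats, so the main counts and shares that use the column labelled sham at week 7 are also given without it, and each value is given by week.

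The tables carried the labelled tissue. The 9 matched cardiomyocyte markers, fixed as a list, had a median percentile of 99.9 to 100 (100 is the highest rank of a table) and together 10.9, 10.8, 13.5 and 9.67% of the summed FPKM at weeks 2, 4, 5 and 7. Of these markers 7 lay in the top 1% and 0 were listed at 0. Markers of other organs were lower at the median, and the kidney list of 10 genes had a median percentile of 18.7 to 26.8 and the liver list 34.2 to 35.7. Some liver markers were well above 0, with Tf, the iron carrier transferrin, at a locus shared with another symbol, at 54.6, 50.7, 48.8 and 33.7 FPKM and Ttr, the thyroid hormone carrier transthyretin, at 17.9 to 38.3 FPKM. The part of other tissues in these values was not tested. Skeletal muscle markers other than the muscle creatine kinase Ckm were low as well, and the highest of them, Tnnt3, fast skeletal troponin T, had 2.98, 2.70, 3.38 and 5.26 FPKM. The atrial list was not near 0. Nppa, the atrial natriuretic peptide gene, had 1112, 1121, 855 and 613 FPKM, Myl7, the atrial regulatory myosin light chain, 468, 386, 214 and 220 FPKM, and Sln, sarcolipin, 103, 85.8, 43.4 and 69.0 FPKM. The atrial list was highest at week 2, with 0.263% of the summed FPKM, and lowest at week 5, with 0.147%, and the part of atrial tissue in these values was not tested.

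Few loci made up a large part of the abundance. The 100 highest loci held 45.1, 44.8, 48.5 and 39.9% of the summed FPKM of all named loci, and the 10 highest held 16.2, 16.1, 19.5 and 13.7%. It took 133, 135, 110 and 190 loci to reach 50% of the sum. At the other end, 4020, 3941, 4228 and 4234 loci were listed at 0, and 3301 of the 17162 were listed at 0 in all weeks. A value of at least 1 FPKM in every week was reached by 9398 loci. Without week 7, 3435 loci were listed at 0 in every week and 9772 reached 1 FPKM in every week. The abundance was thus most concentrated at week 5 and least at week 7, with weeks 2 and 4 between them and close to each other.

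A listing at 0 in these tables is not evidence that a gene was silent. Rpl8, a protein of the large ribosomal subunit that every cell needs, was listed at 0 in all 4 weeks at both of its loci. Atp5f1, a subunit of the ATP synthase stalk, had at most 5.05 FPKM at any of its loci although the other 13 subunits of the complex stood at 94.5 FPKM or more, and Col1a2, a chain of type I collagen, had at most 0.00850 FPKM. The Z-disc gene Myot was listed at 0 in all weeks, and Lmod2, which promotes actin filament assembly in heart muscle, had at most 0.0252 FPKM in any week at its loci. Some loci switched between 0 and a high value, such as Pde4dip, a scaffold protein of the Golgi and centrosome, with 0, 190, 289 and 296 FPKM. These loci were kept, and no biology is read from their values.

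The order of the highest loci was led by contraction and oxygen supply. Myl2, the ventricular regulatory myosin light chain, ranked 1 in all weeks with 33367, 30716, 45919 and 23017 FPKM. Mb, myoglobin, which stores oxygen, ranked 2 in all weeks with 18258, 19860, 24970 and 10406 FPKM. Tnnt2, cardiac troponin T, which anchors the troponin complex to tropomyosin, ranked 4 in all weeks with 10591, 11170, 15064 and 7240 FPKM. The next places were taken by Tnni3, the inhibitory troponin subunit, at ranks 3 to 5, and Actc1, cardiac alpha-actin, also at ranks 3 to 5. The 5 highest loci were the same in every week, and Tnni3 and Actc1 exchanged places between weeks 2 and 4 on one side and weeks 5 and 7 on the other.

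**Figure D1:**
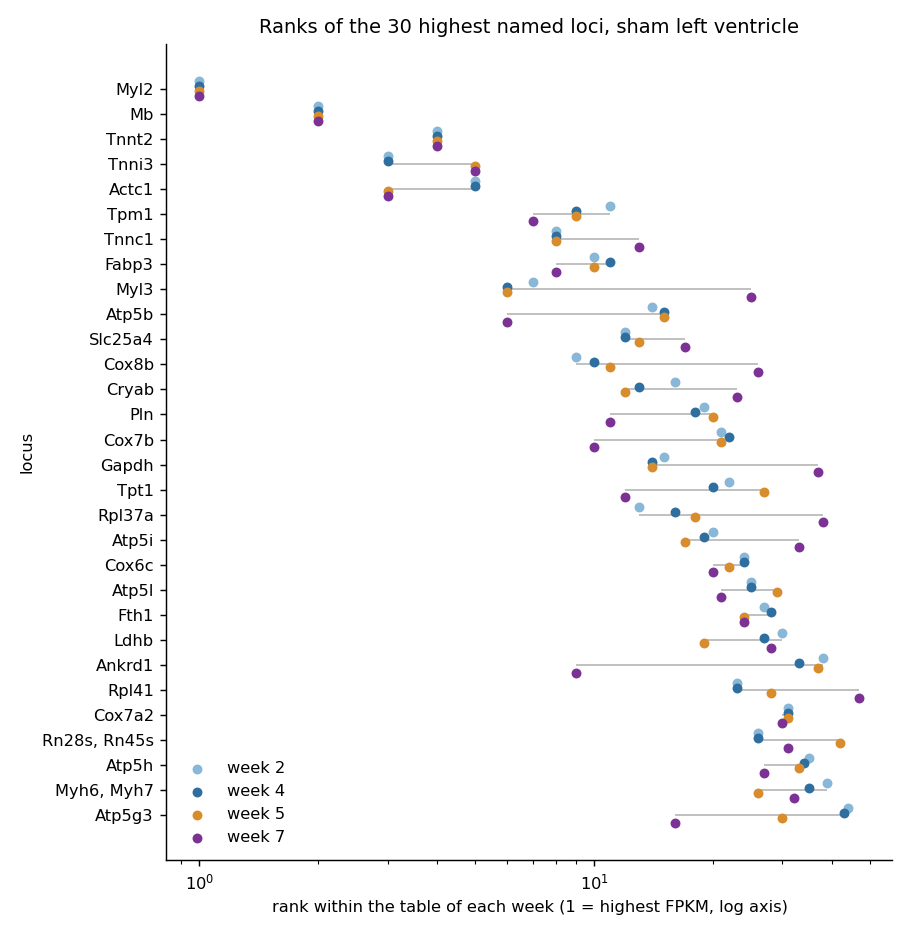
Rank of the 30 named loci with the highest mean percentile in each sham group (x axis, log scale, 1 is the highest FPKM of a table; points of a locus are offset vertically by week and the grey line spans its ranks). Myl2 and Mb keep ranks 1 and 2, while Myl3, Gapdh and Rpl37a rank lower, and Ankrd1 and Atp5g3 higher, at week 7 than at the other weeks.

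Below the leading 5, several loci had another rank at week 7. Myl3, the ventricular essential light chain, ranked 7, 6 and 6 and then 25 at week 7, with 8336, 8718, 12761 and 2572 FPKM. Ankrd1, a stretch-responsive ankyrin repeat protein of the sarcomere and nucleus, ranked 38, 33 and 37 and then 9 at week 7, with 2650, 2851, 3180 and 4040 FPKM. Cox6a2, the muscle form of a cytochrome oxidase subunit, ranked 17, 17 and 16 and then 83, with 4282, 4587, 5920 and 960 FPKM. The widest range of ranks among the 60 highest loci was that of LOC685322, a locus with no role given here, at ranks 6, 7, 7 and 213 with 8433, 7728, 9518 and 427 FPKM. Ranks are given for such loci because the whole difference for Cox6a2 is less than 1 point of percentile.

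Most of the 30 highest loci belonged to a handful of roles. The remaining thin filament genes were Tpm1, tropomyosin, at ranks 7 to 11 and Tnnc1, the calcium-binding troponin, at ranks 8 to 13. Myosin heavy chain stood at ranks 26 to 39 with 2629, 2737, 3968 and 2127 FPKM, but the tables hold Myh6 and Myh7 as 1 locus, so the alpha and beta chains cannot be told apart. Fabp3, which carries fatty acids through the cytosol, stood at ranks 8 to 11, and Slc25a4, which exchanges ADP for ATP across the mitochondrial membrane, at ranks 12 to 17. Pln, phospholamban, which restrains the calcium pump Atp2a2, stood at ranks 11 to 20. Cryab, a small heat shock protein that guards desmin, stood at ranks 12 to 23. The others were the glycolytic enzymes Gapdh and Ldhb, the iron store Fth1, the growth-related protein Tpt1, the ribosomal proteins Rpl37a and Rpl41, ATP synthase and cytochrome oxidase subunits, and the ribosomal RNA locus Rn28s and Rn45s, at ranks 26 to 42.

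Classes of genes were compared by their share of the summed FPKM, which needs no common scale between tables. The lists were the sarcomere (27 matched loci), the respiratory chain encoded in the nucleus (72) and the cytosolic ribosomal proteins (78). Together they held 41.2, 40.8, 43.9 and 34.3% of the summed FPKM with 177 of 17162 loci. Of the 100 loci with the highest mean percentile 31 were respiratory chain, 28 ribosomal proteins and 12 sarcomere, and 10 were in none of the 23 class lists. Without week 7 the 100 highest held 30 respiratory chain, 30 ribosomal protein and 11 sarcomere loci, and the mean shares were 14.6, 12.3 and 15.1%. The 13 genes encoded in mitochondrial DNA, Ttn and Cox7a1 were not matched to a named locus and are not analysed here, so these shares are of the matched nuclear genes.

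**Figure D2:**
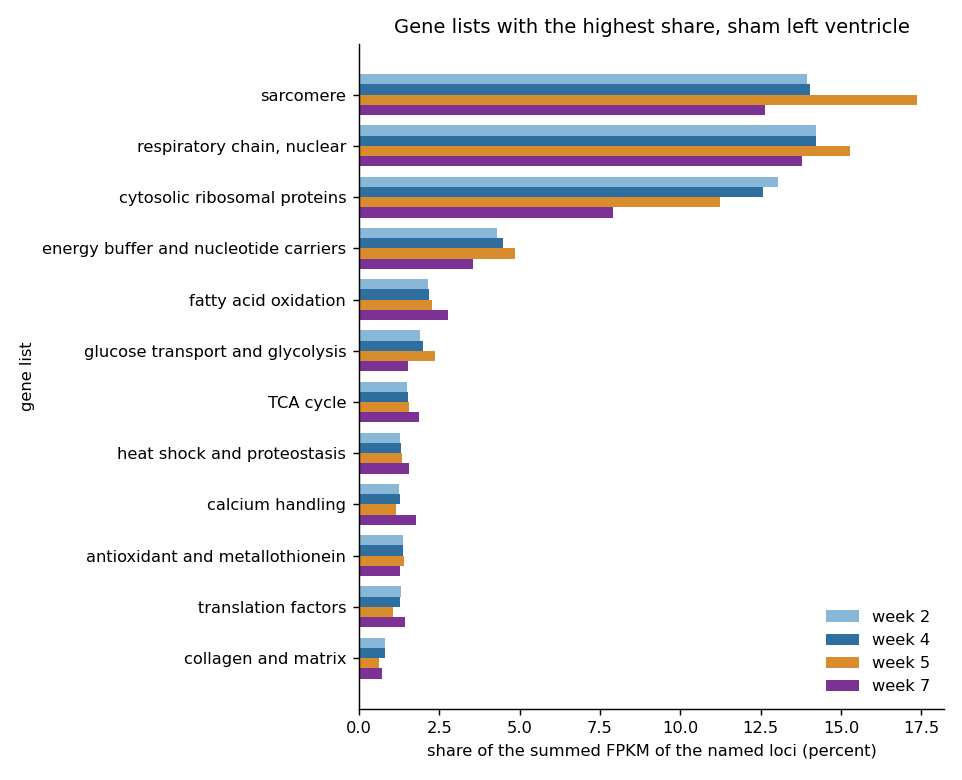
Share of the summed FPKM of the named loci (x axis, percent) held by the 12 class lists with the highest mean share, 1 bar per sham group. The sarcomere list holds 12.6 to 17.3%, the nuclear respiratory chain 13.8 to 15.3% and the ribosomal proteins 7.90 to 13.0%.

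The sarcomere list held 13.9, 14.0, 17.3 and 12.6%. The myosin chains gave 6.01, 5.64, 7.29 and 4.87%, the 3 troponins 3.90, 3.99, 4.53 and 2.90%, and actin with tropomyosin 2.17, 2.43, 3.28 and 2.54%. Every one of these groups was highest at week 5. Structural members of the Z-disc and M-band had lower values than the troponins and light chains. Actn2, alpha-actinin, had 538, 537, 719 and 457 FPKM and Myom1, myomesin, 126, 133, 224 and 193 FPKM. Some of these stood higher at week 7 than in any other week, among them Pdlim5, an adaptor of the Z-disc, with 512, 517, 511 and 1015 FPKM, Nexn, nexilin, with 208, 204, 231 and 463 FPKM, and Xirp2, an actin-binding protein, with 51.9, 51.3, 72.5 and 181 FPKM. These 3, and genes named below that are neither among the highest of a list, nor of a pair, nor among the widest shifts, were chosen after their values were seen.

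The respiratory chain list had the narrowest range of shares of the 3, with 14.2, 14.2, 15.3 and 13.8%. Complex IV (cytochrome oxidase, 11 loci) held 4.53, 4.41, 4.78 and 3.54%, complex V (ATP synthase, 14 loci) 4.30, 4.29, 4.65 and 4.42%, and complex I (the NADH dehydrogenase, 34 loci) 3.77, 3.87, 4.15 and 3.86%. The subunits were also compared per locus. The median locus of complex IV had 3071, 2987, 3408 and 1731 FPKM, that of complex V 2327, 2432, 2977 and 1643 FPKM, and that of complex I 672, 707, 876 and 605 FPKM. Cycs, cytochrome c, the carrier between complexes III and IV, had 1853, 1867, 1908 and 2787 FPKM. Complexes IV and V were thus above complex I per locus in all weeks.

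The steady total hid a change of spread among subunits at week 7. The 34 subunits of complex I lay within 3.95-fold of each other at week 2, within 3.97-fold at week 4 and within 3.84-fold at week 5, but within 62.7-fold at week 7. The standard deviation of their log2 FPKM was 0.60, 0.59, 0.55 and 1.28. At week 7, 19 of them had their highest percentile of the 4 weeks and 11 their lowest. Over all 8687 loci with a mean percentile of at least 50, 46.7% had their highest percentile and 39.1% their lowest at week 7, so the counts of complex I lie near that background. Ndufs7, a core subunit that carries an iron-sulfur cluster, had 466, 494, 763 and 29.7 FPKM. Ndufb7, an accessory subunit, had 774, 862, 1193 and 86.7 FPKM. In the other direction Ndufs1, the largest core subunit, had 523, 552, 600 and 899 FPKM. For ATP synthase without Atp5f1 the 13 subunits lay within 8.46-, 7.46-, 6.44- and 52.7-fold, and for complex IV within 14.5-, 13.1-, 12.1- and 21.8-fold.

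The ribosomal protein list had its lowest share at week 7. It held 13.0, 12.6, 11.2 and 7.90% of the summed FPKM, or 11.2 to 13.0% without week 7. Of its 73 loci with a mean percentile of at least 50, 53 had their lowest percentile of the 4 weeks at week 7 and 20 at week 5, beside 39.1% and 37.2% of all 8687 loci. The median large subunit locus had 960, 934, 981 and 396 FPKM and the median small subunit locus 1227, 1245, 1278 and 578 FPKM. Rpl37a, of the large subunit, had 5185, 4639, 4895 and 1866 FPKM, and Rps29, of the small subunit, 4194, 3989, 4121 and 1091 FPKM. Rpl36, of the large subunit, had 847, 878, 938 and 34.3 FPKM. The median rank was 138, 144.5, 155 and 222.5 for the large subunit and 105, 104.5, 116.5 and 160.5 for the small. Both subunits thus stood lowest at week 7, and at week 5 they stood below weeks 2 and 4.

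Promoters of the 3 leading classes are shown with short motifs known from other work, for members that hold a match, because these classes dominate the ventricle. The sequences are from RefSeq in the build GRCr8, with 120 bases before the annotated start and 30 bases from it, and each was searched on both strands. In sarcomere genes the capitals mark CTANNNNTAG, the core bound by MEF2 factors in muscle. Myoz2, a Z-disc protein that binds calcineurin, is at chr2:213852749-213852898 on the minus strand, Des, desmin, at chr9:84299506-84299655 on the plus strand, and Mybpc3, myosin-binding protein C, at chr3:97550941-97551090 on the plus strand.
Myoz2: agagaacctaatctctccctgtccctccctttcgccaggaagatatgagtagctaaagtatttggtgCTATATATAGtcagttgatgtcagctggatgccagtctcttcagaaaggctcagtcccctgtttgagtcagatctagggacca
Des: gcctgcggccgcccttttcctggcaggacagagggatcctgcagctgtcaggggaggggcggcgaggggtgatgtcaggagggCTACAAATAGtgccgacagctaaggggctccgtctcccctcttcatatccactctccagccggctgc
Mybpc3: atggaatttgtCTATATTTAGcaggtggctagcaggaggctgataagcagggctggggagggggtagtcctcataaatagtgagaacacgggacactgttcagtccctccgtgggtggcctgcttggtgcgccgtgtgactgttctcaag

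In respiratory chain genes the capitals mark CCGGAAG, the core of ETS family factors, and GCGCATG, a part of the site of nuclear respiratory factor 1, on either strand. Matches of the latter overlap each other in Atp5i. Atp5i, subunit e of ATP synthase, is at chr14:1464740-1464889 on the plus strand, Cox7a2, a cytochrome oxidase subunit, at chr8:89601120-89601269 on the minus strand, and Atp5j, coupling factor 6, at chr11:37375072-37375221 on the minus strand.
Atp5i: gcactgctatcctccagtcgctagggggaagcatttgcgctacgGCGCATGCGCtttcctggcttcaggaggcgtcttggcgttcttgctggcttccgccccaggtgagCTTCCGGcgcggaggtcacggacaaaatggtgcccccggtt
Cox7a2: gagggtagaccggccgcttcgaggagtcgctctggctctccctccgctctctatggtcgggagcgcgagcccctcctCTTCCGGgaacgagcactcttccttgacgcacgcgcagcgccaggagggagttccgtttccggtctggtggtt
Atp5j: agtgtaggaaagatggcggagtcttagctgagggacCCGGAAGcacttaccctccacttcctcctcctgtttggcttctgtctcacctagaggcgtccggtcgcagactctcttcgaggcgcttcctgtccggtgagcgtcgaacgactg

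In ribosomal protein genes the capitals mark a pyrimidine run that begins with C within 5 bases of the annotated start and holds at least 4 more pyrimidines, the tract that places these mRNAs under common translational control in mammals. Rpl37a is at chr9:81747971-81748120 on the plus strand, Rps27, of the small subunit, at chr2:177964577-177964726 on the minus strand, and Rps24, also of the small subunit, at chr16:96397-96546 on the plus strand.
Rpl37a: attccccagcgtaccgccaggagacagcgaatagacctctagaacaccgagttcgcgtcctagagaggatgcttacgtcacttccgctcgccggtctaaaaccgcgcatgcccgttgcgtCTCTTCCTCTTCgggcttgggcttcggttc
Rps27: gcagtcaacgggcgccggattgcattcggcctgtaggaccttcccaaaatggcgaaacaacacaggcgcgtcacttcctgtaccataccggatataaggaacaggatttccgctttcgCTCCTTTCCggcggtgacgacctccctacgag
Rps24: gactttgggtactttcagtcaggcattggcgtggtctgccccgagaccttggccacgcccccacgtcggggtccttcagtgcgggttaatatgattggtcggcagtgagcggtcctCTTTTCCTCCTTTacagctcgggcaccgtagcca

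Over whole promoters of 300 bases, 63 of the 72 respiratory chain loci had a RefSeq promoter. CCGGAAG stood in 19 of these (30.2%), beside 9.22% of all 27457 promoters, and GCGCATG in 12 (19.0%), beside 3.94%. TATAAA stood in 7.94% of them and in 14.3% of all. For the sarcomere 20 of 27 loci and for the ribosomal proteins 62 of 78 had a promoter, under 80% in both, so a comparison of shares is void for these classes. As counts, CCGGAAG stood in 20 of the 62 ribosomal protein promoters and GCGCATG in 8, so neither was particular to the respiratory chain. In the 20 sarcomere promoters each stood in 0. A match describes the letters of a promoter and is no measure of binding.

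Other metabolic classes lay just below. The list of energy buffers and nucleotide carriers, with Mb and Slc25a4, held 4.30, 4.48, 4.86 and 3.54%. Fatty acid oxidation held 2.16, 2.19, 2.27 and 2.78%, glucose transport and glycolysis 1.91, 2.00, 2.38 and 1.51%, and the TCA cycle 1.49, 1.54, 1.56 and 1.87%. All 21 TCA cycle loci lay in the top 10% of loci. Of these 19 had their highest percentile at week 7, beside 46.7% of the 8687 loci with a mean percentile of at least 50. Acadl, the long-chain acyl-CoA dehydrogenase, had 1196, 1210, 1607 and 1807 FPKM, and Lpl, lipoprotein lipase, which frees fatty acids at the capillary wall, 977, 1051, 771 and 1736 FPKM at one locus and 233, 305, 837 and 22.9 FPKM at another. Gapdh had 4470, 4776, 6277 and 1896 FPKM and Aldoa, aldolase A, 1589, 1669, 2773 and 780 FPKM. The fatty acid and TCA lists were highest and the glycolysis list lowest at week 7, and the glycolysis list was highest at week 5.

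Calcium handling held 1.25, 1.28, 1.14 and 1.77%. Atp2a2, the calcium pump of the sarcoplasmic reticulum, had 2362, 2509, 2950 and 3147 FPKM, and Casq2, which stores calcium in it, 568, 581, 524 and 744 FPKM. Ryr2, the release channel, had 94.1, 92.2, 156 and 198 FPKM. Collagen and matrix genes held 0.812, 0.808, 0.640 and 0.714%, led by Mgp, the matrix Gla protein that blocks calcification, with 1948, 2087, 1593 and 807 FPKM. Ion channels and pumps held 0.223 to 0.262%, and lists of regulators held far less, with 0.0723 to 0.101% for cardiac transcription factors and 0.0420 to 0.0451% for the circadian clock. Genes of cell division were low, with a median percentile of 43.3 to 45.5.

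The other cells of the wall were also in the tables. Of fibroblast markers, Dcn, the collagen-binding proteoglycan decorin, had 1037, 978, 658 and 1071 FPKM and Col3a1 296, 275, 437 and 259 FPKM. Of endothelial markers, Fabp4, a fatty acid carrier shared with adipocytes, had 2876, 3052, 2339 and 1538 FPKM, and Pecam1, a junction protein, 129, 135, 84.9 and 82.0 FPKM. Of smooth muscle and pericyte markers other than Des, which cardiomyocytes express too, Rgs5, a pericyte signalling regulator, had 451, 435, 89.7 and 387 FPKM at one locus and 107, 128, 269 and 108 FPKM at another. Lyz2, lysozyme of macrophages, had 165, 177, 124 and 118 FPKM, and Hbb, beta-globin of red cells, 3088, 2661, 3088 and 1657 FPKM at a locus shared with 2 other symbols. Lymphocyte markers held at most 0.00558% and mesothelial markers at most 0.00276% of the summed FPKM. In such bulk samples fewer cells of a type and less RNA per cell cannot be told apart.

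Paralog pairs were ordered alike in every sham group. Of 18 fixed pairs 16 could be compared, and the order within each was the same in all 4 weeks, and so necessarily also without week 7. The first gene of the pair, mostly the cardiac or muscle form, was higher in 15. Actc1 exceeded Acta1, the skeletal alpha-actin, 11.98-, 12.2-, 12.8- and 41.3-fold. Myl2 exceeded Myl7 71.3-, 79.6-, 215- and 105-fold. Tnni3 exceeded Tnni1, the slow skeletal and fetal form, 3318- to 7087-fold, where Tnni1 had 0.844 to 3.45 FPKM. The calcium pump Atp2a2 exceeded Atp2a1 of fast skeletal muscle 8700- to 23966-fold, and both of these folds rest on values near 0.

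**Figure D3:**
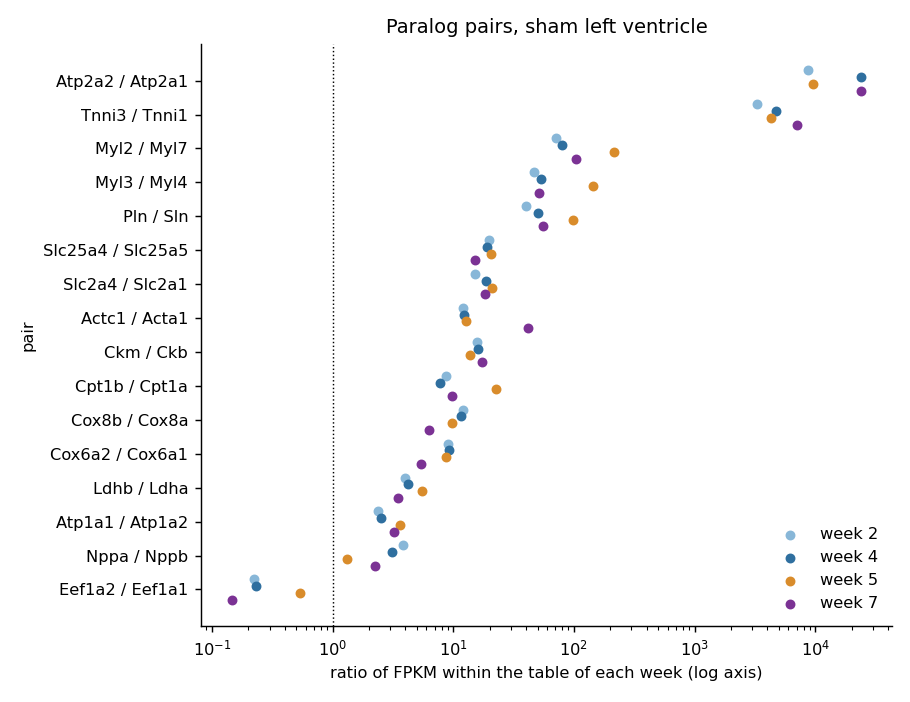
Ratio of FPKM of the first to the second gene of 16 fixed paralog pairs (x axis, log scale; 1 point per sham group, offset vertically by week; the dotted line marks equal values). All points of a pair lie on one side of equality, and Nppa over Nppb at week 5, with a ratio of 1.32, comes closest to it.

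Metabolic and signalling paralogs differed less. Cox6a2 exceeded Cox6a1 9.10-, 9.20-, 8.73- and 5.43-fold and Cox8b, another such subunit, exceeded Cox8a 11.7-fold at week 4, 9.82-fold at week 5 and 6.25-fold at week 7. Slc2a4, the insulin-responsive glucose carrier, exceeded the general carrier Slc2a1 15.1- to 21.0-fold, and Cpt1b, the muscle gate of fatty acid entry into mitochondria, exceeded Cpt1a of the liver 7.70- to 22.8-fold. Ldhb exceeded Ldha 3.47- to 5.56-fold. Eef1a2, the elongation factor of muscle and neurons, was below the general Eef1a1 in all weeks, at 0.222, 0.233, 0.538 and 0.148 of its level. Nppa exceeded Nppb, the brain natriuretic peptide gene, 3.80-, 3.13-, 1.32- and 2.23-fold. Myl7, Myl4 and Sln were lowest against Myl2, Myl3 and Pln at week 5.

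Of the sham groups, weeks 2 and 4 were closest in rank and weeks 5 and 7 furthest apart. Over 17162 loci Spearman's rho was 0.992 between weeks 2 and 4, 0.977 between weeks 2 and 5, 0.979 between weeks 4 and 5, 0.968 between weeks 2 and 7, 0.966 between weeks 4 and 7 and 0.943 between weeks 5 and 7. The points are loci of the same tissue that share annotation and length, so a high value is given as a description. Among the 8687 loci with a mean percentile of at least 50, the median difference was 0.688 points between weeks 2 and 4, 3.01 between weeks 2 and 5, 4.61 between weeks 2 and 7 and 6.95 between weeks 5 and 7. Loci at or near 0 in every week raise the rho of each pair except weeks 2 and 4. Over the 10251 loci with a mean of at least 1 FPKM rho was 0.994 between weeks 2 and 4, 0.900 between weeks 2 and 7, 0.894 between weeks 4 and 7 and 0.804 between weeks 5 and 7. The furthest pair was thus also the pair of the latest weeks.

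Among the 100 highest loci weeks 2 and 4 were again closest and weeks 5 and 7 furthest apart. Weeks 2 and 4 shared 96, weeks 4 and 5 shared 90, weeks 2 and 5 shared 87, and week 7 shared 72, 75 and 71 with weeks 2, 4 and 5. All 4 groups shared 64, and weeks 2, 4 and 5 shared 86. In the list of week 7 alone were 21 loci. They included Oxct1, the enzyme that activates ketone bodies, Uqcrc2 of complex III, the chaperone Hspa8 and Hadhb of fatty acid oxidation. Cd36, the fatty acid translocase, whose locus it shares with another symbol, and a locus of Lpl were also in it. The loci of Lpl summed to 1210, 1356, 1609 and 1759 FPKM. That sum was above Rps15a at week 4, at rank 101 with 1292 FPKM. At week 5 it was above Acadl, at rank 84 with 1607 FPKM. The place of Lpl in this list thus rests on its split over loci. Cd36 had 737, 744, 407 and 1213 FPKM and Oxct1 890, 881, 588 and 1511 FPKM. In the list of week 5 alone were 6 loci. Among them were Chchd10, a mitochondrial cristae protein, with 1030, 1137, 1942 and 232 FPKM, and the small heat shock protein Hspb7. Both were lowest at week 7.

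Loci that stood apart at 1 week were counted next. A locus stood apart when its percentile was at least 10 points above, or below, that of each other week. Only the 8687 loci with a mean percentile of at least 50 could be called, and the shares given beside lists below are of these. That mean includes the week of the call, so a locus can pass through the week where it is high. Of the 8687 loci, 1 stood higher (0.0115%) and 3 lower (0.0345%) at week 2, and 1 higher (0.0115%) and 4 lower (0.046%) at week 4. At week 5, 82 were higher (0.944%) and 335 lower (3.86%), and at week 7, 419 were higher (4.82%) and 913 lower (10.5%). Without week 7, and so against weeks 2 and 4 only, 125 were higher and 364 lower at week 5. A locus cannot stand apart in the same direction at both weeks under this rule. In opposite directions, 48 loci were lower at week 5 and higher at week 7 (14.3% of the 335 and 11.5% of the 419), and 25 were higher at week 5 and lower at week 7 (30.5% of the 82 and 2.74% of the 913).

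The length of a locus moved with these differences. The median span, from the first to the last base of the locus in the tables, was 30.1 kb over those of the 8687 loci with 1 symbol. It was 74.7 kb for those lower at week 5 and 22.4 kb for those higher, and 14.2 kb for those lower at week 7 and 74.0 kb for those higher. When the 8509 loci were cut by span into 5 bins, 349 of the 1702 shortest (up to 10.5 kb) were lower at week 7 and 11 higher, and of the 1702 longest (from 90.5 kb) 72 were lower and 165 higher. At week 5 the shortest bin had 23 higher and 15 lower, and the longest 12 higher and 137 lower. Long loci were thus lower in rank at week 5 and higher at week 7, and short loci the reverse.

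**Figure D4:**
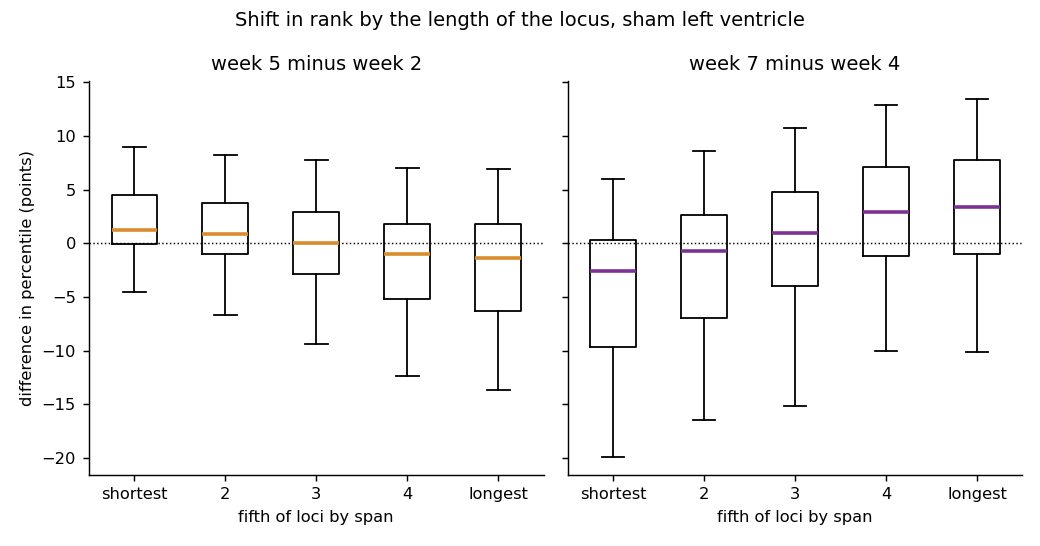
Difference in percentile (y axis, points) by bin of locus span (x axis, 5 bins of equal size), for week 5 minus week 2 (left) and week 7 minus week 4 (right), over 8509 loci with 1 symbol; boxes span the quartiles, coloured lines are medians and whiskers reach the 5th and 95th percentiles. Medians run from 1.28 to -1.40 points at left and from -2.55 to 3.37 points at right.

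Over 8509 loci with 1 symbol the rank correlation of span with the difference of week 5 from week 2 was -0.29, and with the difference of week 7 from week 4 it was 0.37. These differences share no group, and over 8687 loci their own rank correlation was -0.47. The points share the loci's length and annotation. Within the sarcomere list the correlation of span with the log2 ratio of week 7 to week 4 was 0.73 over 24 loci, within the respiratory chain 0.37 over 70 and within the ribosomal proteins 0.28 over 73. The ribosomal proteins had the shortest loci of the 3, with a median of 3.05 kb, against 8.11 kb for the respiratory chain and 27.1 kb for the sarcomere. The part of locus length and of RNA quality in the differences between weeks was not tested.

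Some symbols were split over loci, and this bears on the genes named below. Of 16308 symbols 811 had several loci, and 15 of the 82 loci higher and 50 of the 335 lower at week 5 were of such symbols, as were 47 of the 419 higher and 48 of the 913 lower at week 7. When the FPKM of all loci of a symbol were summed, a choice made after seeing the data, 1 of those 15 symbols still stood higher at week 5, and 18 of 49 stood lower. At week 7, 22 of 45 stood higher and 24 of 45 lower. The loci of a symbol can have unequal lengths, so a sum of FPKM is only a rough level of the gene. All symbols together gave 70 higher and 315 lower at week 5 and 415 higher and 893 lower at week 7, so the counts as a whole were close to those of loci. Parva, an adhesion protein, shows such a split, with 5.24, 4.32, 22.5 and 3.52 FPKM at one locus, 27.6, 27.3, 9.91 and 33.4 FPKM at the other, and 32.8, 31.6, 32.4 and 37.0 FPKM in sum.

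The few loci that stood apart at weeks 2 and 4 included inflammatory chemokines. Cxcl1, which attracts neutrophils, had 8.17, 1.80, 2.37 and 1.09 FPKM and was the locus higher at week 2. Ccl2 and Ccl7, which attract monocytes and are neighbours on chromosome 10 in the tables, were lower at week 4, with 6.12 FPKM for Ccl2 against 17.3 and 12.1 FPKM at weeks 2 and 5, and with 7.78, 2.93, 5.55 and 6.11 FPKM for Ccl7. Fgf1, acidic fibroblast growth factor, was lower at week 2 at one locus, with 1.63, 11.9, 56.3 and 36.6 FPKM, but its other locus was lower at week 5, with 79.7, 75.1, 17.8 and 110 FPKM, and the sum of both did not stand apart at any week. Bc1, named for a small cytoplasmic RNA of neurons, was listed at 0 at week 4 and had 5.75 to 19.9 FPKM elsewhere. Its locus runs from base 159177936 to 159528921 of chromosome 5, so the values may not be of that small RNA. The remaining loci were Pde4dip and a locus of Ttc39a lower at week 2, Phactr3 higher at week 4 and LOC500331 lower at week 4. The sum of the loci of Ttc39a was lower at week 5 instead.

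Genes of lipid synthesis were among the loci higher at week 5. Thrsp, a thyroid hormone-responsive gene that promotes fatty acid synthesis, had the widest upward distance, with 5.07, 6.62, 40.5 and 0.937 FPKM. Fasn, fatty acid synthase, had 3.12, 2.89, 8.67 and 1.05 FPKM and Pck1, which makes glycerol for triglycerides in fat tissue, 1.70, 3.42, 11.1 and 0.541 FPKM. Of the 15 lipogenesis loci 12 had a mean percentile of at least 50. Of these 3 were higher at week 5, beside 0.944% of the 8687 loci, and 8 had their highest percentile there, beside 38.4%. Fasn, at percentiles 49.6, 49.3, 67.2 and 42.2, and Pck1, at 44.0, 51.5, 71.3 and 38.1, reached that mean only through week 5. Neither count is therefore read as a result about the list. The list as a whole held 0.0371, 0.0389, 0.0396 and 0.0419% of the summed FPKM. Its highest member, Me1, was lowest at week 5, with 65.1, 65.8, 55.9 and 95.9 FPKM. Of the others of the 10 widest distances, Adra1d, an alpha-1 adrenergic receptor, the homeobox gene Irx3 and Cited4, a transcriptional coregulator, had 1 locus each. Rpa1, a single-strand DNA-binding protein, Parva, Ppp2r3a, a phosphatase subunit, and Kpna6, a nuclear import factor, had another locus that was lowest at week 5, and none of these 4 stood apart when their loci were summed. Irx3, which patterns conduction in the mouse ventricle, had 5.73, 5.08, 15.8 and 5.05 FPKM. Of 11 adipocyte marker loci 8 had a mean percentile above 50. Of these 0 were higher at week 5 and 4 were lower at week 7, beside 0.944% and 10.5% of the 8687 loci. One of the 4, the lipase gene Lipe, had 34.9, 37.9, 39.1 and 7.91 FPKM there and 0, 1.95, 1.18 and 20.9 FPKM at another locus. Other adipocyte values were those of Adipoq, the hormone adiponectin, with 7.10, 9.34, 9.59 and 2.39 FPKM and Cfd, adipsin, with 26.0, 27.7, 24.5 and 1.49 FPKM, while Ucp1 was listed at 0, 0.274, 30.2 and 0 FPKM. The part of adipose tissue in these values was not tested.

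Loci lower at week 5 included receptors, transcription regulators and some markers of neutrophils and macrophages. Lifr, the receptor of leukemia inhibitory factor, had 19.8, 16.8, 1.32 and 27.2 FPKM. S100a8 and S100a9, the calprotectin subunits of neutrophils, had 38.3, 26.8, 2.81 and 21.2 FPKM and 45.5, 33.5, 5.62 and 39.7 FPKM. Of 10 neutrophil and mast cell loci 5 had a mean percentile above 50. Of these 2 were lower at week 5, beside 3.86% of the 8687 loci. The median percentile of that list was instead highest at week 5, at 48.0, 48.9, 51.2 and 46.3. Cma1 of the list was also highest there, with 3.47, 2.75, 4.10 and 2.68 FPKM. The resident macrophage genes Cd163, Mrc1 and Lyve1 were lower at week 5, with Mrc1, a mannose receptor, at 21.0, 20.3, 5.25 and 24.3 FPKM. Of 12 macrophage loci 11 had a mean percentile above 50. Of these 3 were lower at week 5, beside 3.86% of the 8687 loci. Lyz2, C1qa, C1qb and C1qc of the same list were not among them, and C1qa and C1qc, complement subunits, were lower at week 7. Others by distance were Zbtb16, a glucocorticoid-responsive zinc finger gene, Mbnl1, a splicing regulator, Fzd4, a Wnt receptor, Prex2, an exchange factor, Entpd1, which breaks down ATP outside cells, and RGD1359290. Loci of Hipk3, a kinase, and Cul5, a ubiquitin ligase scaffold, were also among the 10, but both had another locus that was highest at week 5 and neither stood apart in sum. Ppara, the nuclear receptor that drives fatty acid oxidation, had 12.2, 11.2, 2.27 and 15.8 FPKM, and Postn, periostin of fibroblasts, 15.2, 11.5, 5.45 and 18.3 FPKM.

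In the column labelled sham at week 7 immediate early genes were low. These are transcribed within minutes of a stimulus. Of their 30 loci 25 had a mean percentile of at least 50. Of these 10 were lower at week 7, beside 10.5% of the 8687 loci, and 22 had their lowest percentile there, beside 39.1%. Over the 1702 shortest loci 349 were lower at week 7, and the part of locus length in these counts was not tested. Junb, an AP-1 subunit, had 30.5, 25.7, 34.3 and 0.917 FPKM. Egr1, a zinc finger factor, had 46.3, 30.4, 30.7 and 6.25 FPKM and Nr4a1, an orphan nuclear receptor, 18.3, 12.3, 10.8 and 2.15 FPKM. Jun, Jund, Atf3, Ier2, Zfp36, Gadd45b and Gadd45g were the others. The highest of the list were not among them, with Ctgf, a matricellular growth factor, at 71.2, 90.6, 56.7 and 69.2 FPKM and Klf2, a flow-responsive factor, at 64.6, 66.8, 85.8 and 57.0 FPKM.

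Genes of the circadian clock differed between weeks in both directions. Dbp, an output of the clock, had 61.9, 67.4, 153 and 21.3 FPKM and Nr1d1, a repressor within it, 34.9, 39.5, 68.0 and 7.65 FPKM, so both were highest at week 5 and lowest at week 7. Clock, an activator, had 9.09, 7.74, 0.553 and 14.8 FPKM, the reverse order. Per1 was lower at week 7, with 22.2, 21.1, 19.1 and 5.93 FPKM, Per2 was lower at week 5, with 12.6, 12.4, 5.09 and 14.8 FPKM, and Per3 was higher at week 7, with 8.28, 7.34, 6.48 and 14.5 FPKM. Of the 16 clock loci 14 had a mean percentile of at least 50. Of these 4 were lower and 2 higher at week 7, and 2 were lower at week 5, beside 10.5, 4.82 and 3.86% of the 8687 loci. The part of the time of day in these values was not tested.

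**Figure D5:**
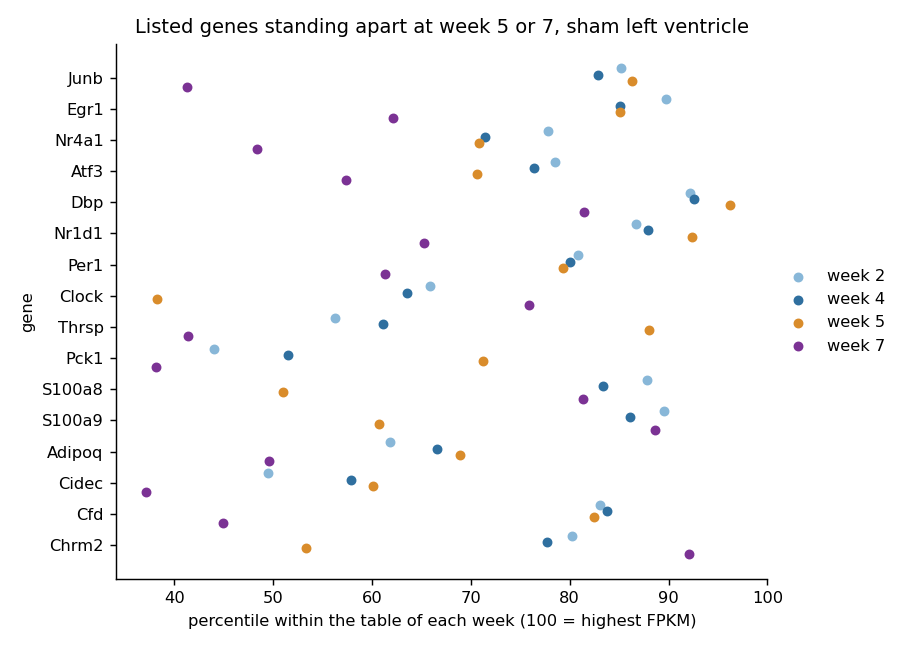
Percentile of 16 listed genes that stood apart at week 5 or 7 (x axis, 100 is the highest FPKM of a table; 1 point per sham group, offset vertically by week), chosen after their values were seen. Junb, Egr1, Nr4a1 and Cfd lie lowest at week 7, S100a8, S100a9 and Clock lie lowest at week 5, and Thrsp and Pck1 lie highest at week 5.

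Other loci with the widest distances at week 7 are named without a common role, and the part of locus length in their values was not tested. Scand1, a small SCAN domain protein, had 39.7, 64.6, 95.7 and 0.151 FPKM, Cd99, a surface glycoprotein, 112, 126, 170 and 3.60 FPKM, and Dpm3, of dolichol-mannose synthase, 45.7, 53.5, 57.2 and 2.77 FPKM. Orai1, the store-operated calcium channel, had 17.4, 20.1, 27.4 and 0.618 FPKM. Also among the 10 were Cfd, Ccdc124, Mir3120, a locus of Rps4y2 whose sum with its other locus did not stand apart, and the class I histocompatibility locus RT1-A3 and RT1-CE16. Higher at week 7 were a minor locus of Trdn, triadin, which ties the release channel to calsequestrin, with 2.24, 1.89, 0.291 and 16.5 FPKM, and Lig4, a DNA ligase, with 5.15, 4.72, 3.31 and 22.1 FPKM. The main locus of Trdn had 216, 211, 116 and 355 FPKM and did not stand apart, nor did the sum. With them were Itgb8, an integrin chain, the zinc finger genes Zfp23 and Zfp347, Ttc14, the cyclin Ccnt2, Mir568, LOC498592 and Hmox2-ps1. The locus of Mir3120 runs from base 84796112 to 85272051 of chromosome 13. That of Mir568 runs from base 61127246 to 61865343 of chromosome 11. Values of both may thus not be of the microRNAs.

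A few receptors of the heart's nerves and hormones stood apart as well. Chrm2, the muscarinic receptor through which the vagus slows the heart, had 21.3, 18.0, 3.36 and 59.3 FPKM, lower at week 5 and higher at week 7. Adra1a had 7.21, 6.25, 4.77 and 16.0 FPKM, while Adra1b, another alpha-1 adrenergic receptor, had 19.3, 22.6, 39.9 and 6.76 FPKM. Of 19 adrenergic and renin-angiotensin loci 12 had a mean percentile above 50. Of these 2 were higher and 1 lower at week 7, beside 4.82% and 10.5% of the 8687 loci. At week 5, 1 was higher and 2 lower, beside 0.944% and 3.86%. Nkx2-5, a cardiac homeobox factor, had 17.4, 24.0, 42.7 and 3.03 FPKM and Esrra, a nuclear receptor of mitochondrial genes, 55.1, 57.7, 78.2 and 8.75 FPKM, both lower at week 7. Myocd, a coactivator of muscle genes, had 6.53, 4.69, 7.58 and 16.9 FPKM and Esrrg 10.8, 10.5, 7.39 and 18.8 FPKM, both higher at week 7. Of 20 cardiac transcription factor loci 3 were higher and 2 lower at week 7, beside 4.82% and 10.5% of the 8687 loci. The count of lower loci lies near that share. How far locus length entered these values was not tested.

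Gene families of the senses lay at the bottom of every table. Of 1228 olfactory receptor loci, detectors of odours, 1178 were listed at 0 in all weeks, as were 155 of 166 vomeronasal receptor loci. Of 364 microRNA genes 333 were listed at 0 in all weeks. Mir208b, which lies in a myosin heavy chain gene in mouse and human, was listed at 0 in 3 weeks and at 20.1 FPKM at week 7. Its locus has the coordinates of the locus of Myh6 and Myh7, with a span of 52.2 kb, so the value may not be of the microRNA. Of 43 proteasome subunit loci 42 had a mean percentile of at least 50, with a median percentile of 93.2 to 94.3, and 67 mitochondrial ribosomal protein loci had a median percentile of 89.7 to 93.0. These families were chosen after their values were seen.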

How the data were processed

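The deposited tables, 1 per week, give 1 abundance per locus and surgery group. The authors' unit was taken as FPKM, since the submitters' processing notes name Cufflinks 2.0.10, Cuffdiff, TopHat2 2.0.10, cutadapt and the build rn5, without roles. The file headers do not state it. The deposited test statistic (a score) and log2 fold change were used for their signs. A deposited table gives each library's count of reads and the percent of reads mapped and of bases at quality 30. The 4 columns of 5/6Nx and 2 columns of that table were not used.

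Tables were joined on the locus identifier. At week 7, 314 extra rows repeated a locus with the same value and were dropped, and 6 rows with no identifier and 1 with other coordinates were left out. Symbols turned into dates (23) were treated as unnamed. Percentiles are average ranks over 17162 named loci. Of 769 listed genes 714 matched, older names through RefSeq (GRCr8), with the locus of highest mean FPKM per symbol. The members and lists were chosen with earlier results of these data known. Named genes were the 30 highest loci, the 3 highest and the lowest of each list, the 10 widest shifts per week and direction, and the paralogs. With 1 value per group no test was made. Calculations used Python 3.11.15, pandas 2.3.3, numpy 2.4.6 and matplotlib 3.10.9.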

Additional observations from a re-analysis of the deposited data

How the results depend on the processing

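No paired analysis was possible because the tables hold 1 pooled value per group and no column per library, so neither a replicate block nor leaving out a library could be run. The median Spearman's rho over pairs of weeks was 0.973 and came to 0.922 over loci with a mean of at least 1 FPKM, 0.924 over loci tested at every week and 0.954 without loci at 0. The count of loci standing apart followed the rule. At weeks 2, 4, 5 and 7 it was 4, 5, 417 and 1332. With 5 points it was 15, 26, 1931 and 3457, and with 20 points 2, 1, 40 and 156. Without the floor on mean percentile it was 217, 251 and 803 at weeks 2, 4 and 5, and with a floor of 75 it was 1, 0, 115 and 409. With unnamed loci it was 11, 8 and 647 at weeks 2, 4 and 5. At week 4 it was 3 over loci tested at every week, and under a 2-fold rule 2 after quantile mapping and 3 after division by the table median, which gave 268 at week 5. Of alternatives chosen after seeing the data, leaving out week 7 gave 7 and summing the loci of a symbol gave 1 at week 2. Mean shares depended on what was summed. The sarcomere went from 14.5 to 6.70%, the respiratory chain from 14.4 to 7.02%, the ribosomal proteins from 11.2 to 5.32% and cardiomyocyte markers from 11.2 to 5.17% with unnamed loci included, where 1 unnamed locus held 85.5 and 96.9% of the sum at weeks 4 and 5. Without the 10 highest loci the sarcomere held 3.09% and the respiratory chain 16.3%. Median percentiles of the sarcomere, respiratory chain and ribosomal proteins were 99.2 each, came to 98.9, 98.7 and 98.7 over loci with at least 1 FPKM, and to 99.4 and 99.4 for the former pair with unnamed loci. The order of all 16 paralog pairs was kept when the loci of a symbol were summed. Leaving out a week could not change it, since the order was alike in every week. Leaving out mitochondrially encoded genes was not run, since none matched. Of 279 further values, which are shares and median percentiles of the other class and marker lists, 82 moved by more than the spread between weeks under an alternative and 197 did not. The 197 include every value with a week left out. Leaving out 1 week cannot move a mean of 4 weeks by more than their standard deviation, so those outcomes were fixed in advance. The tally is thus no measure of robustness. No alternative was run for the value of a single gene. The cause of these differences was not tested. The depth behind a single FPKM is unknown, so low values carry no interval.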
